A study of Mus musculus with 4 samples.

Results

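The nuclear genes of oxidative phosphorylation were described in the cerebellum of mice that carry a heterozygous knockout of Arid1b. The members were the gene symbols of the count table that begin with Nduf (the a, b, c, s and v series), Sdha to Sdhd, Uqcr, Cox4 to Cox8 or Atp5, with at least 10 counts summed over the 4 libraries. Of 24015 genes in the table, 84 symbols matched and 82 were members, 36 of complex I, 4 of complex II, 8 of complex III, 17 of complex IV and 17 of complex V. Cox8c and Ndufs5 matched and had 0 counts in all 4 libraries. Ndufs5 encodes an accessory subunit of complex I, and 23.0% of the 100-base stretches of its transcript also occur in BC002163. That gene had 38 and 23 counts in the heterozygotes and 14 and 37 in the wild types (males first), and whether reads of Ndufs5 were lost in the counting was not tested. By function 4 members are not subunits. Atp5s and Atp5sl belong to a family linked to complex I assembly, Cox7a2l promotes supercomplexes of complexes III and IV, and Ndufa4l2 is a relative of Ndufa4. Ndufa4 itself is counted with complex I by its name and is known as a complex IV protein. Ndufab1 and Cyc1 are subunits that the symbol rule left out, and they are described with the wider pathway.

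Arid1b encodes a subunit of BAF, a chromatin remodelling complex. The 4 libraries were 1 male and 1 female heterozygote (HT) and 1 male and 1 female wild type littermate (WT), all of the C57BL/6N strain and 140 to 150 days old. The cerebellum was micro-dissected and poly(A) RNA was sequenced as stranded single-end libraries that shared 1 lane. The labels give the genotype without the deleted part of the gene, and do not say that each library is 1 animal, so the spread between libraries may be partly technical. Library totals were 20287016 counts (HT male), 15950899 (HT female), 16453759 (WT male) and 20616219 (WT female), which makes 3 counts worth 0.146 to 0.188 CPM (the usual scaling of counts by the library total). Arid1b stood at 52.9 and 55.8 CPM in the HT male and HT female and 69.9 and 71.0 CPM in the WT male and WT female, a log2 fold change (± its standard error, as below) of -0.37 ± 0.11 with adjusted p 0.243 in the quasi-likelihood test of edgeR. Its groups did not overlap, but without the deleted part this level checks the labels only in part.

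Oxidative phosphorylation passes electrons from NADH through complex I, or from succinate through complex II, to complex III and then to complex IV, which reduces oxygen. Complexes I, III and IV pump protons, and complex V, the ATP synthase, lets them flow back to make ATP. Most subunits are nuclear-encoded, and those described here work beside a small set of subunits encoded in mitochondrial DNA. Several complex IV subunits exist as a widespread form and a form typical of heart and skeletal muscle (Cox6a2, Cox7a1, Cox8b), lung and vessels (Cox4i2) or testis (Cox6b2, Cox7b2). Neurons depend heavily on this pathway, and the cerebellum is dominated by granule neurons. All 15 granule cell markers and all 14 Purkinje cell markers had counts in every library. Among them Gabra6 was at 329 to 502 CPM and Cbln3 at 1028 to 1567 CPM. Detection alone does not identify the cerebellum.

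The promoters of 4 members are printed, those of widespread subunits, of a muscle form and of the most abundant member. Each is the 250 bases before the RefSeq start (GRCm38.p6), 5′ to 3′ along the gene, with capitals marking searched motifs on either strand. Cox6a1 is the widespread partner of Cox6a2, Cox8a and Cox8b are a widespread and a muscle form of the same subunit, and Atp5b is the catalytic beta subunit of complex V.
Cox6a1, chr5:115348959-115349208 (minus strand): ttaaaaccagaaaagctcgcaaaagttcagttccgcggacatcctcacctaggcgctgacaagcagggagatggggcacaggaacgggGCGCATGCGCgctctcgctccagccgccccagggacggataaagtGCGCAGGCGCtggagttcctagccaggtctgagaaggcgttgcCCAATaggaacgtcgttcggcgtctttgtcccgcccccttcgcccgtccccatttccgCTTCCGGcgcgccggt
Cox8a, chr19:7217617-7217866 (minus strand): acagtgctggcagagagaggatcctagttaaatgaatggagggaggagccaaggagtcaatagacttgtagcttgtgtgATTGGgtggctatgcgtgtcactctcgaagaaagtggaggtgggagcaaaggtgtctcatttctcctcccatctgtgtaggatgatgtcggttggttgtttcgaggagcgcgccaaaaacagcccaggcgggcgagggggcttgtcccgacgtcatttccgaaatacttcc
Cox8b, chr7:140900447-140900696 (minus strand): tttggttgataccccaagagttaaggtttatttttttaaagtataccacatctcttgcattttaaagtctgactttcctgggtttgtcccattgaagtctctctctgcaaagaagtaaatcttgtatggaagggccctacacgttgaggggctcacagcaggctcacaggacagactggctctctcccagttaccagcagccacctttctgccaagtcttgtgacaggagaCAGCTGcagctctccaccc
Atp5b, chr10:128083057-128083306 (plus strand): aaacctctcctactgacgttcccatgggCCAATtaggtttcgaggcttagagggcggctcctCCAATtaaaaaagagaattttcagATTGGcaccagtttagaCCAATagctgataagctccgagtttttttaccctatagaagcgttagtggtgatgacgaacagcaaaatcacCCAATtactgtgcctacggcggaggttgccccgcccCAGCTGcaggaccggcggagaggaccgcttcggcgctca
In Cox6a1 the capitals mark an NRF1 motif (GCGCA, any base, GCGC) beginning 162 and another beginning 117 bases before the start, a CCAAT box 74 bases before it and an ETS motif (CCGGAAG, on the reverse strand) 16 bases before it. NRF1 and the ETS factor GABP are known regulators of respiratory chain genes. Cox8a has a CCAAT box at 171 bases, and Cox8b has the myogenic E-box CAGCTG at 19 bases. Atp5b has 5 CCAAT boxes, at 222, 188, 164, 147 and 75 bases, and a CAGCTG at 39 bases. No marked motif overlapped another. The subunit 7a pair, not printed, differed from these, since the muscle form Cox7a1 has 2 CCAAT boxes and no CAGCTG, and the widespread Cox7a2 has 0 of the searched motifs. A promoter was found for 68 of the 82 members. The NRF1 motif lay in 12 of them (17.6%), beside 5.84% of all 17491 coding genes with a promoter, and the ETS motif in 17.6% beside 10.2%. CCAAT was in 45.6% of the members and 39.5% of all genes. The other motifs were rarer among the members than among all genes, but this rests on few promoters. CAGCTG was in 5 (7.35% against 13.8%), the MEF2 motif (CTA, 4 free bases, TAG) in 1 (1.47% against 3.56%) and TATAAA in 6 (8.82% against 13.7%). NRF1 matches were spread as 5 of 31 complex I promoters, 2 of 3 for complex II, 0 of 5 for complex III, 1 of 13 for complex IV and 4 of 16 for complex V. The median number of CpG dinucleotides in the window was 14 in the members and 10 in all coding genes. A match describes letters in the window and not binding of a factor.

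The 82 members together took 1.94% of the counts of the HT male, 1.74% of the HT female, 1.62% of the WT male and 1.77% of the WT female. Levels of different genes were compared as CPM per kb of transcript, averaged over the 4 libraries. The median level was 160 in complex I, 147 in complex II, 270 in complex III, 264 in complex IV and 300 in complex V, and 65 of the 82 members lay between 100 and 1000. Atp5b had the highest level, 992 CPM per kb, followed by Cox8a (927), a small complex IV subunit, Cox4i1 (918), the widespread form of the subunit through which ATP regulates complex IV, and Ndufa4 (821). The ranges of these 4 over the libraries overlapped. Within each library Ndufa4 was below Atp5b and Cox4i1, while the other pairs changed order between libraries, so their order is not resolved. Complex V also held Atp5o at 609.6 CPM per kb, the stalk subunit that confers oligomycin sensitivity. In complex III the top was Uqcrh at 568, the hinge protein beside cytochrome c1, and Uqcrq at 370.5, and the lowest were Uqcrc2 at 174, a core protein, and Uqcrfs1 at 134, the Rieske iron-sulfur protein. Within complex II the catalytic subunits Sdha (204) and Sdhb (167) exceeded the membrane anchors Sdhd (128) and Sdhc (42.7).

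Under 10 CPM on average were 8 members, Ndufa4l2, Cox4i2, Cox6a2, Cox6b2, Cox7a1, Cox7b2, Cox8b and Atp5l. The first 7 are tissue isoforms or a relative of a subunit, from Cox6a2 at 1.13 CPM per kb to Cox7a1 at 14.9. Atp5l (subunit g of the ATP synthase, 5.45 CPM per kb) and Ndufb4 (12.4), in contrast, are not tissue isoforms. Of the 100-base stretches of their transcripts, 69.0% for Atp5l and 33.4% for Ndufb4 also occur in another gene or pseudogene, and the same held for 100% of Atp5g2, 48.1% of Atp5g1, 47.1% of Atp5o, 44.4% of Cox7c and 32.7% of Atp5h. The sources used here do not give how reads with several matches were counted, and the levels of these 7 genes are uncertain.

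**Figure D1:**
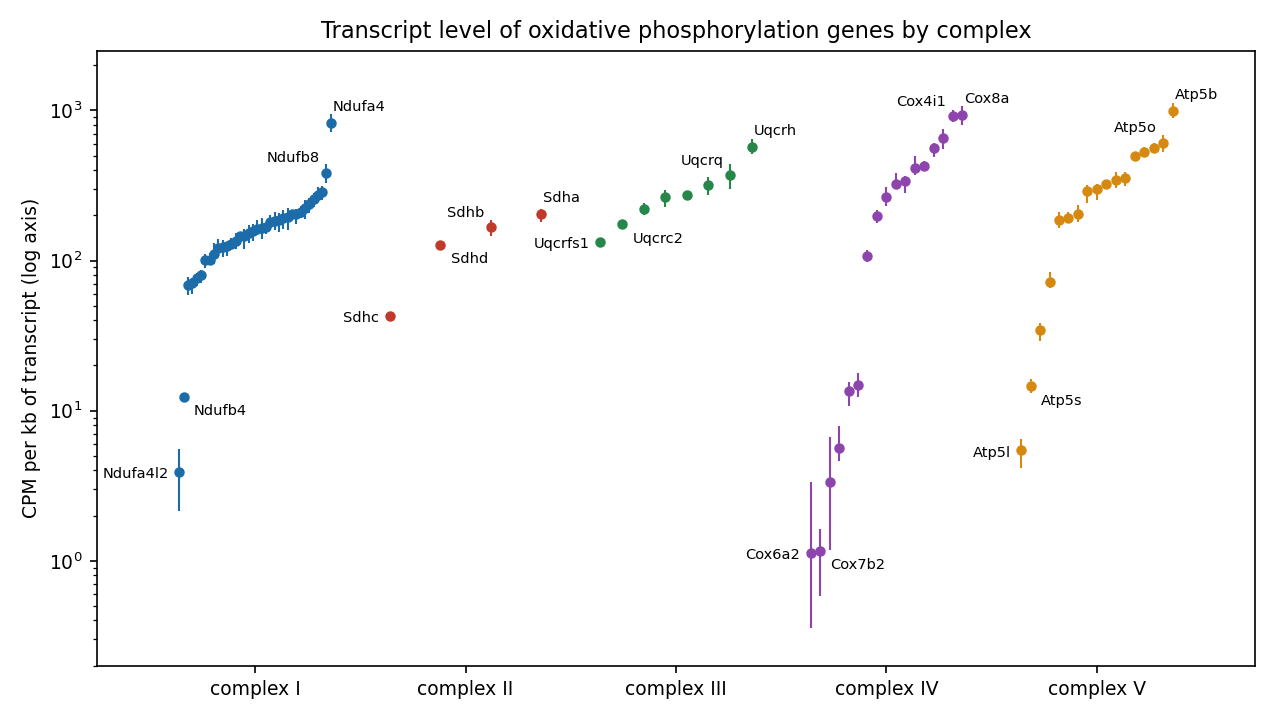
Level of each of the 82 members, in CPM per kb of transcript on a log axis, ordered within complexes I to V. Points are means of 4 libraries and lines run from the lowest to the highest library. Most members sit between 100 and 1000, and Cox6a2, Cox7b2, Cox8b, Ndufa4l2, Atp5l and Cox4i2 lie below 10.

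The genotype comparison asked whether the loss of 1 Arid1b copy goes with another level of these genes. No member passed the threshold. The test could be made for 81 members (Cox6a2 had too few counts), and with edgeR's quasi-likelihood test and Benjamini-Hochberg adjustment over 15117 genes 0 of 81 were called at 0.05, beside 3 of all genes (0.0198%). At an unadjusted p under 0.05 there were 2 higher members (Atp5b and Ndufb5, background 5.22%) and 1 lower (Ndufa4l2, background 6.46%). DESeq2 and limma-voom also called 0, beside 0.218% and 0.0198% of all genes. The 1 residual degree of freedom of edgeR's fit holds the sex difference of the genotype effect. That difference had a median of -0.40 in the members and 0.018 over all genes. It can widen the spread of the members, so the 0 calls do not show equal levels. The fold changes nevertheless lay mostly on one side, with 67 of 81 members above 0 (51.1% of all genes) and a median log2 fold change of 0.11 (0.006 over all genes). Medians by complex were 0.12 for I, 0.09 for II, 0.09 for III, 0.11 for IV and 0.08 for V.

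This one-sidedness rested on the male libraries. Without the HT male 45 of 81 members were higher with a median of 0.01, and without the WT male 41 of 82 with a median of 0.005. Without the HT female 76 of 82 were higher (median 0.18), and without the WT female 80 of 82 (median 0.20). Leaving out the WT male called 6 members (Atp5b, Cox6a2, Cox8a, Ndufa4l2, Ndufc2 and Sdha) in a fit that called 17.5% of all genes, and leaving out the WT female called 11 (Atp5d, Atp5o, Cox5b, Cox6b1, Ndufa8, Ndufa10, Ndufa11, Ndufa13, Ndufb8, Ndufs6 and Uqcrq) in a fit that called 4.30%. In those fits genotype is the only term and the lone wild type library is assumed to vary like the heterozygotes. Both heterozygotes exceeded both wild types in 22 members (22.1% of all genes) and lay below both in 1, Ndufa4l2 (22.6% of all genes).

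Complex I takes electrons from NADH at a flavin held by Ndufv1 and passes them along iron-sulfur clusters in Ndufv2, Ndufs1, Ndufs7 and Ndufs8. Ndufb5, an accessory subunit of its membrane arm, was at 202 and 178 CPM in the HT male and HT female and 160.4 and 161 CPM in the WT male and WT female. Both heterozygotes were above both wild types, and the log2 fold change was 0.24 ± 0.11 (adjusted p 0.41, edgeR). Ndufb8, the second most abundant complex I symbol, showed 300.1 and 261 against 225 and 260.3 CPM, with the HT female and WT female nearly equal (log2 fold change 0.21 ± 0.12, adjusted p 0.529 by edgeR). Ndufa4 was at 428 and 326 CPM in the HT male and HT female and 348 and 383 CPM in the WT male and WT female, with the HT female the lowest of the 4 libraries. Ndufb4 spanned only 11.4 to 12.7 CPM. The core subunits Ndufs1, Ndufs3, Ndufs7, Ndufs8, Ndufv1 and Ndufv2 had log2 fold changes of 0.11 to 0.17, all above 0. Ndufs1 was at 225 and 210.0 CPM in the HT male and HT female and 209.7 and 185 CPM in the WT male and WT female. Ndufv1 was at 257 and 244 against 230.3 and 230.0 CPM in the same order, again with no overlap of the groups. Ndufs8 did not overlap either. In Ndufs3, Ndufs7 and Ndufv2 the groups overlapped, and the WT female exceeded the HT female. Both heterozygotes exceeded both wild types in 22.1% of all genes. Among the 28 accessory subunits, with Ndufa4 counted here by its name, 23 were higher, from -0.15 for Ndufc2 to 0.24 for Ndufb5.

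Complex II is the only complex here with no mitochondrially encoded subunit, and it is also an enzyme of the tricarboxylic acid cycle. Sdha, which holds the flavin that oxidises succinate, was at 639 and 604 CPM in the HT male and HT female and 599 and 522 CPM in the WT male and WT female, so that the WT female was the low library. Sdhb, the iron-sulfur subunit, was at 214 and 191 CPM in the HT male and HT female and 167 and 189.8 CPM in the WT male and WT female, with the WT male low and the female pair nearly equal. Their log2 fold changes were 0.15 ± 0.10 and 0.18 ± 0.11, with adjusted p of 0.606 and 0.575 in edgeR's test. The anchors Sdhc (143 and 130.3 against 131 and 138 CPM, heterozygotes first, males first) and Sdhd (159 and 155 against 148 and 165 CPM) overlapped between the genotypes and had log2 fold changes of 0.02 ± 0.11 and 0.01 ± 0.11.

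Complex III carries electrons from ubiquinol to cytochrome c. In 2 of its 8 members, the core proteins Uqcrc1 and Uqcrc2, both heterozygotes exceeded both wild types, beside 22.1% of all genes. Uqcrc1 was at 402 and 373 CPM in the HT male and HT female and 334 and 339 CPM in the WT male and WT female. Uqcrc2 was at 355 and 339 against 319.7 and 308 CPM in the same order. Their log2 fold changes were 0.21 ± 0.10 and 0.15 ± 0.10, with adjusted p of 0.479 and 0.627 by edgeR. The other members of the complex overlapped between the genotypes. Uqcrq, which lies near the ubiquinone site, was at 177 and 142 CPM in the HT male and HT female and 121 and 161 CPM in the WT male and WT female, a range set by the males at both ends. Uqcrh was at 352 and 282 against 283 and 327 CPM, Uqcrfs1 at 192 and 180.5 against 175 and 183 CPM and Uqcrb at 154 and 139 against 139 and 151 CPM. Uqcrb had the lowest log2 fold change of the complex, 0.01 ± 0.11.

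Complex IV hands electrons to oxygen, and its nuclear subunits surround a mitochondrially encoded core. The abundant Cox8a was at 518 and 492 CPM in the HT male and HT female and 440.3 and 590.2 CPM in the WT male and WT female, with the highest and lowest value both in wild types (log2 fold change -0.01 ± 0.13). Cox4i1 was at 746 and 649 CPM in the HT male and HT female and 626 and 715 CPM in the WT male and WT female, and its genotypes overlapped too (0.06 ± 0.12). Cox5b, a zinc-binding subunit, was at 317 and 297 against 244 and 309 CPM with a low WT male (0.16 ± 0.12, adjusted p 0.661 by edgeR). Cox7a2l had 127 and 119 CPM in the HT male and HT female and 110.1 and 106 CPM in the WT male and WT female, so both heterozygotes were above both wild types, with a log2 fold change of 0.19 ± 0.10 and an adjusted p of 0.508 in the same test.

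Complex V turns the proton flow into rotation of a ring of c subunits and of the gamma stalk inside the alpha and beta subunits. Atp5b was at 2141 and 1962 CPM in the HT male and HT female and 1799.6 and 1697 CPM in the WT male and WT female. The heterozygotes were the higher library in both sexes, and the log2 fold change of 0.23 ± 0.10 was the one of smallest p in the set (0.0386, adjusted 0.397, edgeR). Atp5a1, the alpha subunit, was at 1411 and 1328 against 1256 and 1237 CPM and also did not overlap (0.14 ± 0.10). Atp5o was at 361 and 331 CPM in the HT male and HT female and 278 and 321 CPM in the WT male and WT female, with a log2 fold change of 0.21 ± 0.11 and an adjusted p of 0.504 by edgeR. The gamma subunit Atp5c1 varied little, at 399 and 374 against 372 and 374 CPM. Atp5l (3.55 and 2.26 against 2.55 and 3.49 CPM) and Atp5s (22.9 and 19.9 against 24.2 and 19.5 CPM) overlapped between the genotypes.

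**Figure D2:**
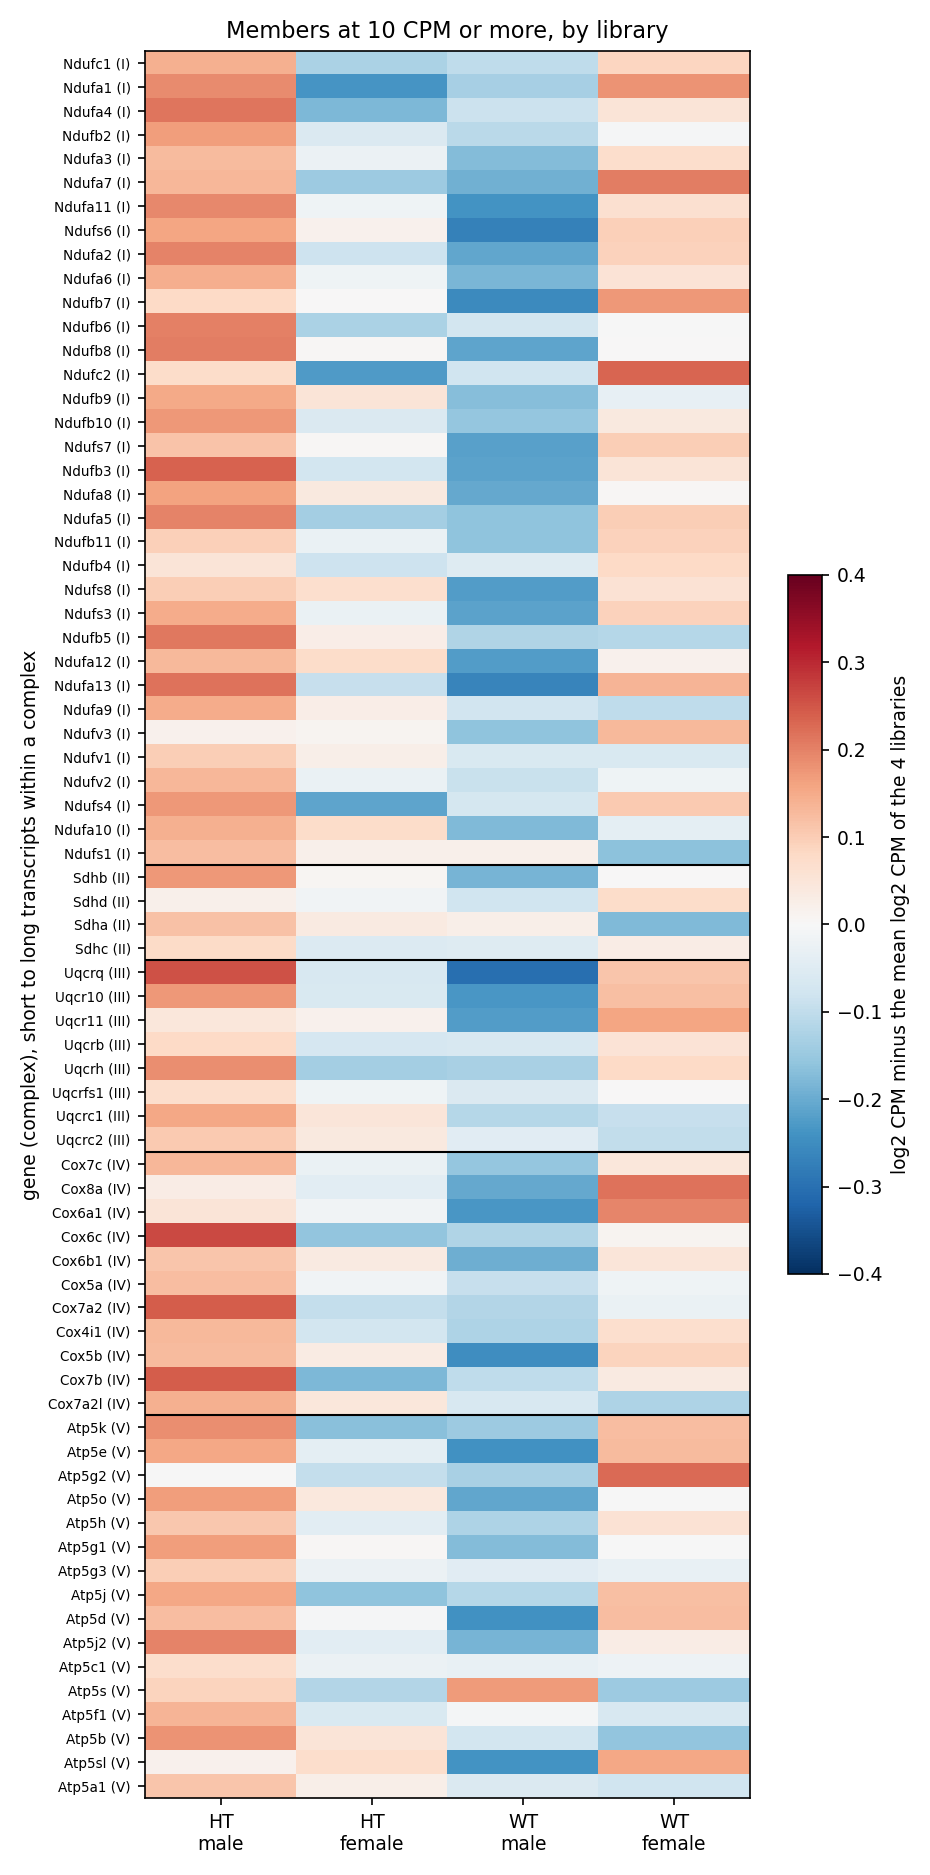
Members with a mean of 10 CPM or more in each of the 4 libraries, as log2 CPM minus the mean log2 CPM of its 4 libraries (red above, blue below), ordered by complex and then by transcript length. The HT male column is mostly red and the WT male column mostly blue, whereas the female columns are mixed.

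Taken by sex, each pair is 1 library against 1, so the ratios carry no test. In the male pair 79 of 81 members were higher in the heterozygote (50.3% of all genes) with a median log2 ratio of 0.30. In the female pair 25 of 81 were higher (49.4% of all genes) with a median of -0.09. The male ratio was above and the female ratio below 0 in 55 members, beside 21.2% of all genes. The HT male was the highest library for 64 members (25.7% of all genes), the WT male the lowest for 54 (23.6%), and both held for 41 (8.84%). Uqcrq had the widest male ratio of the members above 10 CPM, 0.55, beside -0.17 in the females. Ndufa13, an accessory subunit also known as GRIM-19, had 0.48 and -0.22, and Ndufa1, an X-linked membrane arm subunit, 0.32 and -0.41. Atp5b, in contrast, was alike in both sexes (0.25 and 0.21), as was Uqcrc2 (0.15 and 0.14). These 5 were picked after their values were seen.

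The difference between the sexes was also put through edgeR over all genes, as a contrast of single libraries whose spread comes from the sex effect and from other genes. It has no replicate of its own, so the unadjusted counts are a description. None of 81 members passed after adjustment (0.0198% of all genes), and the adjusted p of the members was 0.998. At an unadjusted p under 0.05 the effect was lower in females in 21 members (1.76% of all genes) and higher in 0 (1.79%). DESeq2 gave 13 in either direction. Its share of all genes was not taken, so the 13 cannot be weighed against a background. The 21 were 11 of complex I, 3 of complex III, 3 of complex IV and 4 of complex V. For sex itself 0 of 81 were called (0.0595% of all genes). At an unadjusted p under 0.05 there were 0 by edgeR (3.82% of all genes) and 0 by DESeq2, whose share was not taken. The median female minus male log2 difference was -0.003. The 1 residual degree of freedom of this fit holds the sex difference of the genotype effect, which can widen the spread of these members. A sex effect is therefore not excluded.

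**Figure D3:**
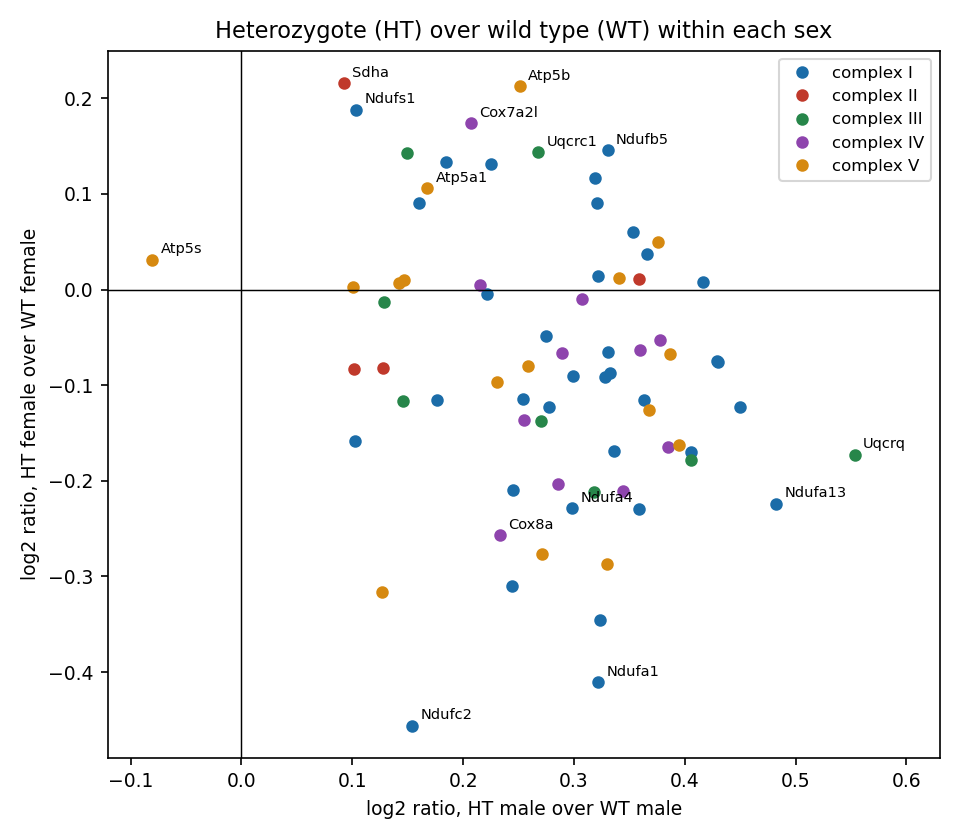
Log2 ratio of heterozygote over wild type in the male pair (horizontal axis) and the female pair (vertical axis) for the members with a mean of 10 CPM or more, coloured by complex. Nearly all points lie right of 0, and they spread on both sides of 0 vertically, with Atp5b, Sdha and Ndufs1 at the top and Ndufc2 and Ndufa1 at the bottom.

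The pair ratios varied with transcript length. Members under 700 bases (37 genes) had a median male ratio of 0.32 and a median female ratio of -0.16, members of 700 to under 1200 bases (24 genes) 0.33 and -0.09, and longer members (20 genes) 0.17 and 0.06. All tested genes of the same lengths had medians of the same sign under 1200 bases, nearer to 0 in the males, but not among longer genes in the males. The 544 genes under 700 bases had medians of 0.17 and -0.12, the 1300 of 700 to under 1200 bases 0.15 and -0.09, and the 12880 longer ones -0.01 and 0.01. Across the 81 members, which share the same libraries, Spearman's rho between length and the ratio was -0.45 in the male pair and 0.58 in the female pair. With each library's trend over transcript length and GC content removed, a setting chosen after seeing the data, the median male ratio was 0.13 (73 of 81 above 0) and the median female ratio 0.03 (45 of 81). The opposite signs of the sexes in the median therefore did not hold once this trend was removed, while the median genotype fold change went from 0.11 to 0.08. The 17 subunits of the catalytic core and complex II had medians of 0.18 in males and 0.003 in females, and the other 60 subunits 0.32 and -0.12. That division was made after the values were seen.

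**Figure D4:**
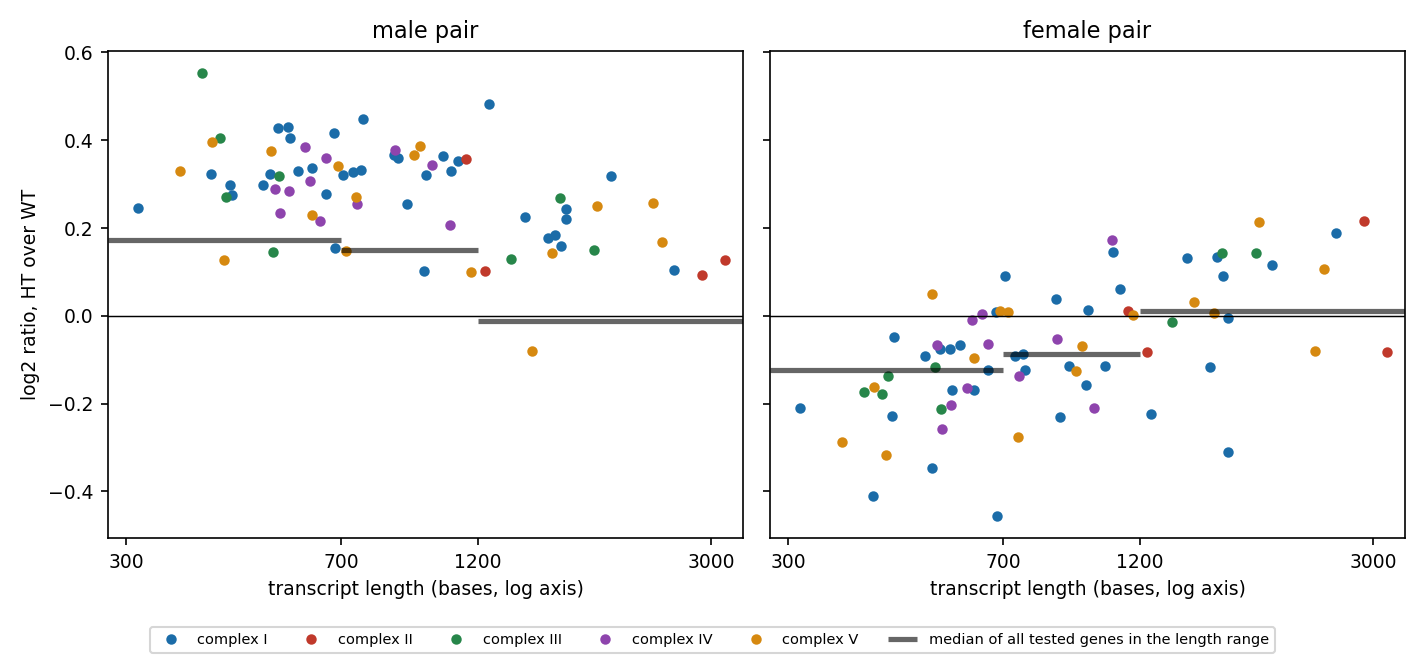
Log2 ratio of heterozygote over wild type against transcript length (log axis) in the male pair (left) and the female pair (right), for members with a mean of 10 CPM or more, coloured by complex. Bars give the median of all tested genes in 3 length ranges. Short members lie high in the male pair and low in the female pair, and the medians of all genes under 1200 bases have the same signs.

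Cell type markers also moved with the libraries. In bulk tissue, fewer cells of a type and less RNA per cell cannot be told apart. Granule cell markers summed to 4629 and 5201 CPM in the HT male and HT female and 6010 and 6986 CPM in the wild types, with 15 of 15 lower in the heterozygotes, 13 of them at an unadjusted p under 0.05 (6.46% of all genes) and 0 after adjustment. Purkinje cell markers summed to 6359 and 5921 CPM against 6839 and 8018 CPM, with 14 of 14 lower, 9 of them at an unadjusted p under 0.05. Over all genes 51.1% had a log2 fold change above 0. The median Purkinje marker ratio was -0.10 in the male pair and -0.47 in the female pair. Pcp2, Pvalb and Pcp4 were higher in the HT male than in the WT male. Oligodendrocyte markers were at 14473 and 13609 CPM against 12506 and 13196 CPM, and astrocyte markers at 5584 and 5283 CPM against 5305 and 6394 CPM. Choroid plexus markers stood at 2693 CPM in the HT male, beside 1553, 1470 and 1462 CPM in the other libraries, led by Ttr at 1857 CPM against 936 to 988 CPM, and 5 of 10 were higher in the heterozygotes at an unadjusted p under 0.05 (5.22% of all genes). The part of these differences in the levels of the members was not tested.

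The 5 complexes, summed as CPM over their members, kept the same picture. Complex I summed to 5781 and 5103 CPM in the HT male and HT female and 4705 and 5333 CPM in the WT male and WT female. Complex IV gave 3771 and 3332 against 3080 and 3641 CPM, and complex III 1909 and 1708 against 1590 and 1750.5 CPM. In these 3 the WT female exceeded the HT female, and the genotypes overlapped. Complex II, at 1154 and 1081 against 1045 and 1015 CPM, and complex V, at 6793 and 6179 against 5784 and 5975 CPM, were higher in both heterozygotes. For complex V this held only as summed CPM, to which Atp5b and Atp5a1 contribute most. Summed as CPM per kb it was at 6062 and 5431 against 5073 and 5503, where the WT female exceeded the HT female, while complex II stayed apart at 582 and 543 against 514 and 524 CPM per kb. All members together averaged 18406 ± 1419 CPM (SD, n = 2) in the heterozygotes and 16959 ± 1068 CPM (SD, n = 2) in the wild types, a ratio of 1.09, with 1.20 in the males and 0.982 in the females. With 2 libraries a genotype no exact test of such a sum can pass, so none was made.

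The tissue isoforms were minor in every library. Cox6a2, the heart and muscle form of subunit 6a, had 46 counts in the HT male, 4 in the HT female, 5 in the WT male and 5 in the WT female. The HT male thus stood apart, and its share of Cox6a1 plus Cox6a2 counts was 0.583% (Wilson 95% interval 0.437 to 0.777), beside 0.0678%, 0.0957% and 0.0568% in the others. The Cox6a2 level in the HT male was 7.46 times that of the WT male (exact 95% interval 2.98 to 24.1, which covers counting error only). Cox6a1 itself was at 387 and 369.6 CPM in the HT male and HT female and 317 and 427 CPM in the WT male and WT female, with the WT female highest. Cox8b, the muscle form of subunit 8, had 49, 12, 7 and 26 counts in the same order of libraries, a male ratio of 5.68 (exact interval 2.56 to 14.9) and a female ratio of 0.597 (0.274 to 1.22). Its log2 fold change was 0.82 ± 0.75 with an adjusted p of 0.743 by edgeR, and -0.19 without the HT male. Cox7a1, the muscle form of subunit 7a, was less uneven, with 133, 79, 80 and 145 counts, 2.54%, 2.42%, 2.42% and 3.25% of the counts of Cox7a1 plus Cox7a2. Its widespread partner Cox7a2 was at 252 and 199.5 against 196 and 209 CPM.

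The summed skeletal muscle markers, like Cox6a2 and Cox8b, were highest in the HT male. The sum was 249 CPM in the HT male, 18.3 CPM in the HT female, 15.3 CPM in the WT male and 22.5 CPM in the WT female. All 15 had a count in the HT male and in the WT female, while 1 was at 0 in the HT female and 2 in the WT male. Myh4, a fast muscle myosin, had 827, 0, 0 and 29 counts, Acta1 (skeletal actin) 774, 29, 33 and 72, and Tnnt3 (fast troponin T) 730, 15, 4 and 24. The HT male was the highest library for 14 of the 15, with Myh7, a slow myosin, highest in the HT female (3.39 against 3.20 CPM). The WT female was second for Cox8b and for 9 of the 15 markers, and for Cox6a2 the intervals of the other 3 libraries overlapped. Brown fat markers, the other tissue in which these forms are known, were between 8.99 CPM (WT male) and 14.6 CPM (WT female), mostly from Cidea, with Ucp1 at 14, 11, 10 and 19 counts. The part of muscle RNA in the isoform levels was not tested.

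Cox4i2, the lung and vessel form of subunit 4, had 75, 56, 55 and 119 counts, 0.493%, 0.538%, 0.531% and 0.801% of the Cox4i1 plus Cox4i2 counts, so the WT female was high. Its log2 fold change was -0.29 ± 0.31, the lowest of complex IV. Ndufa4l2, a gene induced in low oxygen, had 69 and 32 counts in the HT male and HT female and 66 and 107 in the wild types, or 3.40 and 2.01 against 4.01 and 5.19 CPM. In CPM, both heterozygotes were below both wild types, and the log2 fold change of -0.78 ± 0.34 was the largest of the lower members (p 0.0431, adjusted 0.408, edgeR). Its female ratio was 0.387 (exact 95% interval 0.252 to 0.578) and its male ratio 0.848 (0.596 to 1.21). Endothelial markers had the same order of libraries, with sums of 165 and 147 CPM in the heterozygotes and 192 and 294 CPM in the wild types. The log2 fold change was below 0 in 10 of 10, while 51.1% of all genes were above 0. Their median log2 ratio was -0.14 in the male pair and -0.97 in the female pair. Cdh5 was higher in the HT male than in the WT male. Pericyte and smooth muscle markers summed to 194 and 172 against 181 and 249 CPM. The WT female was highest for both lists, as for Cox4i2 and Ndufa4l2, and the part of vessel RNA in these 2 genes was not tested.

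The testis forms were also detected. Cox6b2 had 148, 133, 97 and 177 counts, 1.91 to 2.33% of the Cox6b1 plus Cox6b2 counts, and its log2 fold change was 0.13 ± 0.23. Cox7b2 had 18, 5, 10 and 15 counts, 0.135 to 0.285% of the Cox7b plus Cox7b2 counts, with intervals that overlapped. Their widespread partners Cox6b1 (375 and 356 against 303 and 359.6 CPM) and Cox7b (310.4 and 232 against 245 and 269 CPM) had the HT male highest.

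The c subunit of complex V is made from 3 genes with the same mature protein. Atp5g3 gave 68.2% and 68.6% of their counts in the HT male and HT female and 70.5% and 67.6% in the wild types, Atp5g1 26.1% and 25.5% against 23.5% and 25.1%, and Atp5g2 5.69% and 5.85% against 5.96% and 7.24%. Atp5g3 was at 379 and 348 CPM in the HT male and HT female and 342 and 346 CPM in the WT male and WT female. The HT male was the highest library. Atp5g1 was at 145 and 129 against 114 and 129 CPM and Atp5g2 at 31.6 and 29.7 against 28.9 and 37.1 CPM, where the WT female was high. Atp5g2 had the lowest log2 fold change of complex V, -0.10 ± 0.15, and both Atp5g1 and Atp5g2 share sequence with pseudogenes, as given above.

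**Figure D5:**
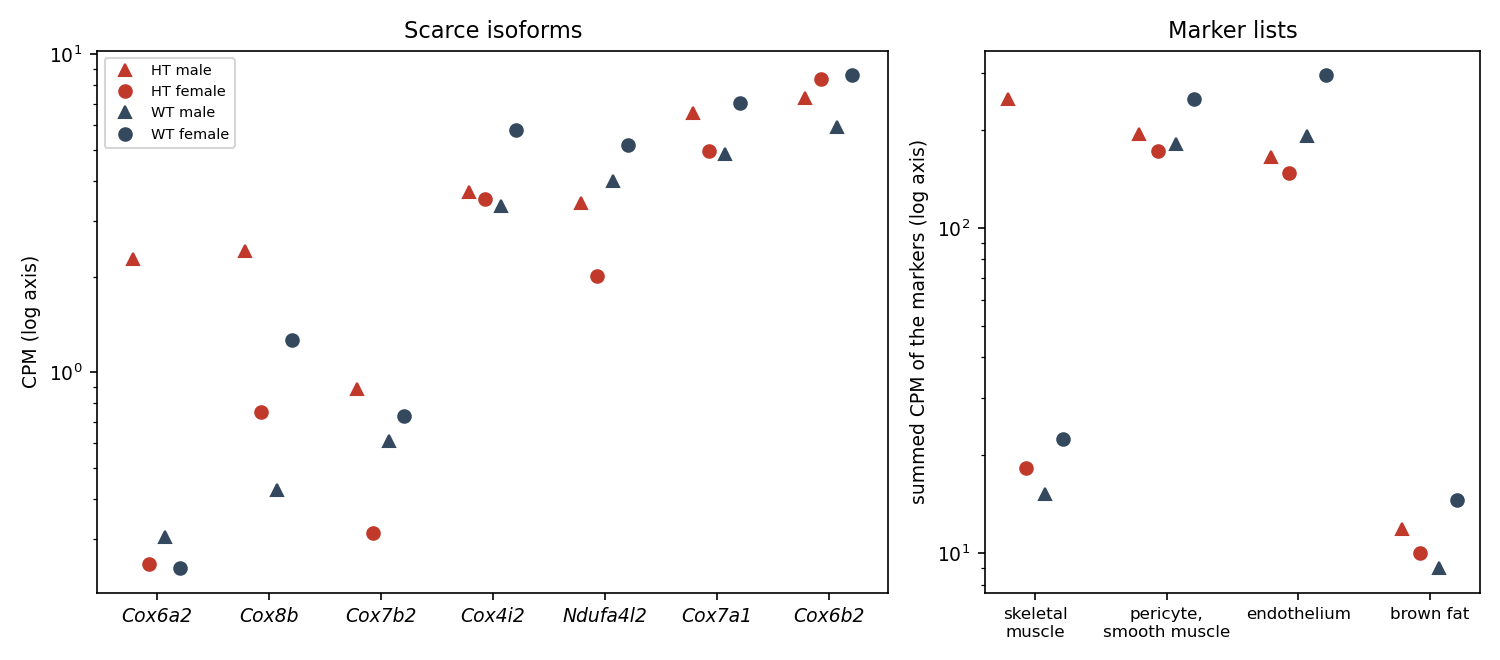
Left, CPM (log axis) of 7 scarce isoforms or relatives in each library. Right, summed CPM (log axis) of marker lists for skeletal muscle, pericytes and smooth muscle, endothelium and brown fat, in the same symbols. The HT male stands above the other libraries for Cox6a2, Cox8b and skeletal muscle (249 CPM), and the WT female is highest for Cox4i2, Ndufa4l2, pericytes and smooth muscle, and endothelium.

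Other genes of the pathway were read from lists of assembly factors, carriers, regulators and neighbouring pathways. Of 111 tested genes, 0 passed the adjusted threshold in edgeR's test (0.0198% of all genes), and 5 were higher (5.22% of all genes) and 1 lower (6.46%) at an unadjusted p under 0.05. The log2 fold change was above 0 in 83 (51.1% of all genes) and below in 28. Assembly factors were split 30 higher to 14 lower of 44, with a median of 0.07. The lowest of them was Cox20, which helps to mature a mitochondrially encoded complex IV subunit. Cox20 was at 41.9 and 45.1 CPM in the HT male and HT female and 58.6 and 66.5 CPM in the WT male and WT female, so both heterozygotes were below both wild types, and its log2 fold change of -0.52 ± 0.12 had a p of 0.00103 and an adjusted p of 0.156 by edgeR. The complex IV factors Taco1, a translation activator (0.48 ± 0.19), and Coa3 (0.24 ± 0.11) lay on the other side, each higher in both heterozygotes. In the complex I list the genes of smallest p were Ndufaf1 (0.27 ± 0.15), Ndufaf2 (0.20 ± 0.16) and Ndufaf4 (-0.16 ± 0.13). For complex II they were Acn9, also called Sdhaf3 (0.35 ± 0.23), Sdhaf1 (0.04 ± 0.15) and Sdhaf2 (0.01 ± 0.12). For complex III they were Uqcc1 (0.17 ± 0.10), Uqcc2 (0.10 ± 0.12) and Ttc19 (-0.21 ± 0.12), and for complex V Atpaf1 (0.27 ± 0.16), Atpaf2 (0.09 ± 0.14) and Tmem70 (-0.07 ± 0.13).

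The list of subunits outside the symbol rule and electron carriers had 8 of 9 tested genes higher, with a median of 0.11. It holds Ndufab1, the acyl carrier protein of complex I, at 23.8 and 22.9 against 19.8 and 25.4 CPM and Cyc1, cytochrome c1 of complex III, at 320.4 and 301 against 266 and 311 CPM. Its genes of smallest p were the small complex V proteins 2010107E04Rik (0.22 ± 0.12) and Usmg5 (0.18 ± 0.13) and the inhibitor Atpif1 (0.19 ± 0.13). Carriers and porins were higher in 8 of 11 (median 0.11), including the ADP/ATP carrier Slc25a4 (0.18 ± 0.11) and the porin Vdac1 (0.17 ± 0.10), while Ucp2 had -0.23 ± 0.12. The tricarboxylic acid cycle was higher in 15 of 17 (median 0.12), with Idh3a at 0.19 ± 0.10 and Ogdh at 0.18 ± 0.10. Glycolysis was higher in 14 of 16 (median 0.13), led by Pgam1 (0.29 ± 0.10, adjusted p 0.301 by edgeR), Pgk1 (0.23 ± 0.10) and Tpi1 (0.23 ± 0.10). The median ratio of the glycolytic genes was above 0 in both pairs, at 0.19 in the males and 0.15 in the females. Genes of the tricarboxylic acid cycle gave 0.14 and 0.09. The 81 members had 0.30 and -0.09, but this varied with transcript length. Members of 1200 bases or more had 0.17 and 0.06, and both ranges of shorter members were below 0 in the female pair. With the length and GC trend removed, the member medians were above 0 in both pairs, as given above. The contrast between the members and these lists, and the part of transcript length in it, was not tested. Regulators of mitochondrial biogenesis were split 8 to 6 of 14 (median 0.006), with Gabpa, the DNA-binding part of GABP (-0.17 ± 0.14), Tfb2m, a mitochondrial transcription factor (-0.37 ± 0.20), and the nuclear receptor Esrrg (0.12 ± 0.10).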

How the data were processed

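The deposited table holds raw read counts per gene symbol, 1 column per library, as the authors' file gives them. Per the submitters' processing notes the tools were STAR, featureCounts, FastQC and edgeR and the build was mm9, with no version or setting given. No source used here states whether counting used strand or reads with several matches. Therefore reads of overlapping genes and copies may be split in an unknown way. No mm9 annotation was used. Transcript lengths (principal protein-coding transcript, found for 99.3% of tested genes) came from GENCODE on GRCm38 and promoters from RefSeq.

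Groups and sex came from the labels. Low genes were removed by filterByExpr of edgeR, grouped by genotype (15117 genes kept, 99.9% of counts), and libraries were scaled by TMM (factors 0.999 to 1.00). The test was edgeR 4.0.16 (R 4.3.3), whose robust quasi-likelihood fit took genotype and sex, with 1 residual degree of freedom (median prior degrees of freedom 10.6) and a common biological coefficient of variation of 11.5%. Two-sided p-values were adjusted over all tested genes (Benjamini-Hochberg). Standard errors are the log2 fold change divided by the square root of F. The sex difference of the genotype effect was tested as an interaction beside genotype, with the sex effect left in the residual. Pair ratios used a prior count of 2. The scripts were tested on simulated data. Alternatives were DESeq2 1.42.0, limma-voom (limma 3.58.1), edgeR's likelihood ratio test, other scalings and filters, no sex term, a length and GC trend removed, and each library left out.

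Members, lists and motifs were chosen with earlier results of these data known. Named members were all isoform groups, the 2 highest and 2 lowest per length, the 2 of smallest p and the largest rise and fall in each complex. Some more, such as Ndufs1, Ndufv1, Atp5a1 and Atp5c1, were named outside this rule. The 3 genes of smallest p were named in each pathway list, except genes not reported here by name. Marker lists are given as sums, with up to 3 genes named, and for skeletal muscle Myh7 as well.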

Additional observations from a re-analysis of the deposited data

How the results depend on the processing

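The labels give no replicate numbers to pair by. The fit paired the libraries by sex alone, which sets 1 library of each genotype side by side. The number of members called for genotype was 0 under DESeq2, limma-voom, edgeR's likelihood ratio test and scaling by library totals or DESeq2's size factors. It was also 0 with no low-count filter, a minimum of 1 CPM in 2 libraries, no sex term and the length and GC trend removed. These settings called 0 to 2.92% of all genes, the most with no low-count filter. Leaving out 1 library gave 0 to 11 called members. The range of 0 to 2.92% does not cover the fits with a library left out. The fits that called members, without the WT male or the WT female, also called larger shares of all genes, as given above. Each leaves 1 wild type library, so their calls cannot be read as specific to the members. The median log2 fold change over all members was 0.08 with the trend removed and 0.005 to 0.20 over the left-out libraries. The median ratio of the female pair was -0.09, and 0.03 with the trend removed. The sex difference of the genotype effect had 21 members at an unadjusted p under 0.05 with edgeR, all lower in females (1.76% of all genes). DESeq2 had 13, which cannot be weighed because its share of all genes was not taken. After adjustment there were 0 with both (0.0198% of all genes with each). The log2 ratio of the complex II sums was 0.12, with 0.070 to 0.16 over the left-out libraries. Per transcript length the mean isoform shares over the libraries were 2.35% for Cox6b2, 4.38% for Cox7a1, 0.432% for Cox7b2, 0.472% for Ndufa4l2, 9.57% for Atp5g2 and 65.7% for Atp5g3, beside 2.11%, 2.66%, 0.234%, 0.97%, 6.19% and 68.8% as counted. Of 36 named genes with a fold change, 21 took the other sign under at least 1 setting. With the trend removed Atp5s was at 0.10 and Sdhd at -0.022. Over the left-out libraries the log2 fold change ran from -0.27 to 0.082 for Atp5g2, from -0.42 to 0.22 for Atp5l, from -0.18 to 0.14 for Atp5s, from -0.044 to 0.16 for Cox4i1, from -0.68 to 0.11 for Cox4i2, from -0.0071 to 0.33 for Cox5b, from -0.17 to 0.25 for Cox6a1, from -0.14 to 0.40 for Cox6b2, from -0.28 to 0.25 for Cox7a1, from -0.020 to 0.30 for Cox7a2, from -0.15 to 0.27 for Cox7b, from -1.08 to 0.39 for Cox7b2, from -0.22 to 0.20 for Cox8a, from -0.19 to 1.92 for Cox8b, from -0.16 to 0.22 for Ndufa4, from -0.097 to 0.038 for Ndufb4, from -0.043 to 0.077 for Sdhc, from -0.068 to 0.083 for Sdhd, from -0.060 to 0.076 for Uqcrb, from -0.11 to 0.20 for Uqcrh and from -0.0058 to 0.40 for Uqcrq. The cause was not tested. A gene at 0 counts is below 0.146 to 0.188 CPM, and lone reads of scarce isoforms limit their shares.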
